A study of Mus musculus with 69 samples.

Results

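The interferon response genes described here are 33 mouse genes, found by matching the gene symbols of a list of 39 named members to the 17306 probe sets of a liver expression array, which holds 1 probe set per gene. The other 6 named members, Oas1a, Oas1g, Ifit3, Isg15, Ifi44 and Gbp6, were not analysed here. No member was removed by a filter on low values. Dhx58, Oas3 and Mx1 had every group mean below 4.23, the lowest median of any array on the log2 scale, so a difference in these 3 genes rests on dim signals.

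The study measured the livers of 69 male C57BL/6 mice, aged 10 weeks, after 1 oral dose of acetaminophen (APAP), isoniazid (INZ), paraquat (PQ) or vehicle. At 1 day the APAP doses were 168.75, 225 and 300 mg/kg, the INZ doses 22, 44 and 88 mg/kg and the PQ doses 12.5, 25 and 50 mg/kg, called low, medium and high below, and at 2 days the high dose of each compound was measured. Each of the 14 groups held 5 mice, except medium-dose PQ with 4, and all mice shared the strain, the sex, the age and the route. One vehicle group per day, labelled for APAP, was the control of all 3 compounds, so comparisons within a day share their controls. APAP is an analgesic that injures the liver when its reactive metabolite exhausts glutathione, INZ is an antituberculosis drug and PQ is a herbicide that generates superoxide by redox cycling. All values are log2 signals, on which a difference of 1 is a doubling, and mice are numbered within a group in the order of the deposited records.

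Type I interferons signal through the receptor chains IFNAR1 and IFNAR2 and the kinases JAK1 and TYK2 to a complex that holds STAT2 and IRF9 and binds the interferon-stimulated response element (ISRE) in the promoters of its target genes. Interferon gamma, made mainly by lymphocytes, signals through IFNGR1 and IFNGR2 and acts on promoters that hold the gamma-activated sequence (GAS). The targets include sensors of viral RNA, enzymes and membrane proteins that block viral growth, GTPases that attack vacuoles holding microbes, and the chemokine CXCL10. In liver, hepatocytes as well as Kupffer cells and recruited leukocytes can respond to interferon, and sterile injury releases nucleic acids that can set off the same sensors.

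The promoters of 6 members, picked because they hold a match, show where letters of the ISRE occur. Eif2ak2, Stat2, Ifih1 and Bst2 are called members with an ISRE match in this window, and Ifit1 and Irgm1 are described below in single mice. Each line runs 5′ to 3′ along the gene's strand, from 250 bases before to 50 bases after the start of the gene, as RefSeq gives it for GRCm38.p6. Capitals mark matches to GAAANNGAAA on either strand.
Eif2ak2: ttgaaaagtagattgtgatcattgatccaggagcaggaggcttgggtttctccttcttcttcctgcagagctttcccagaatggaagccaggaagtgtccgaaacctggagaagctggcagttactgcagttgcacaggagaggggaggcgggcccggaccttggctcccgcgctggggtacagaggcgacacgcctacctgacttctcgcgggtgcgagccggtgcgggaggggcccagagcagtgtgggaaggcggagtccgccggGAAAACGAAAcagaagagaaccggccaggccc
Stat2: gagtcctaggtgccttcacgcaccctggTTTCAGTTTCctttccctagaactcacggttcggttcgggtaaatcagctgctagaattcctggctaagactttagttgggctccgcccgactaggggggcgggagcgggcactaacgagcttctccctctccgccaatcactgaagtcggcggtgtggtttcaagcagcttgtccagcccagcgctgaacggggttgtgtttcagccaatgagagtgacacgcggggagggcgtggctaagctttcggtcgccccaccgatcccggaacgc
Ifih1: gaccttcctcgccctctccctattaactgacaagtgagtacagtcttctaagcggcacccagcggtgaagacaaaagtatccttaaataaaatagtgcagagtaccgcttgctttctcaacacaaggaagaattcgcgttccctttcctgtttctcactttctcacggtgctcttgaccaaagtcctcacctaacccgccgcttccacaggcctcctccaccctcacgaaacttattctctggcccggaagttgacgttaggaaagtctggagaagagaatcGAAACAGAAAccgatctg
Bst2: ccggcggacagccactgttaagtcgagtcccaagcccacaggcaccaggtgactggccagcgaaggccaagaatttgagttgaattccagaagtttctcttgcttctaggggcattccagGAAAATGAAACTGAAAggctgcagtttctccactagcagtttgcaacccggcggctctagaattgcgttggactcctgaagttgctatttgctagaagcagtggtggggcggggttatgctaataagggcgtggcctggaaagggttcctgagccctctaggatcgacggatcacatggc
Ifit1: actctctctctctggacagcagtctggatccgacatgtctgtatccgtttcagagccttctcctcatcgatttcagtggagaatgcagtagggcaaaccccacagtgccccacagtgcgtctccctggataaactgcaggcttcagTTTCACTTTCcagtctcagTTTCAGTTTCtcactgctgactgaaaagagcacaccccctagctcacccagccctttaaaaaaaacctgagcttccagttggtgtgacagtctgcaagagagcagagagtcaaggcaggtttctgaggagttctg
Irgm1: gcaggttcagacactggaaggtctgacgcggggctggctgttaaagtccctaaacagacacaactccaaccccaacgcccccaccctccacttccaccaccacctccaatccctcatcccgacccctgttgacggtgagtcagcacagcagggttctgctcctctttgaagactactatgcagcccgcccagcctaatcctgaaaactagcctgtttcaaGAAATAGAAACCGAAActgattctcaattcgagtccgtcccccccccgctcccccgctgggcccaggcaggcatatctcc
These windows lie at chr17:78882523-78882822, minus strand, for Eif2ak2, chr10:128270248-128270547, plus strand, for Stat2, chr2:62646206-62646505, minus strand, for Ifih1, chr8:71537423-71537722, minus strand, for Bst2, chr19:34640639-34640938, plus strand, for Ifit1 and chr11:48871371-48871670, minus strand, for Irgm1. The matches in Bst2 and in Irgm1 are overlapping pairs, which begin at bases 221 and 227 of the window in Irgm1. In Eif2ak2 and Ifih1 the match begins at bases 269 and 283, after the start of the gene. RefSeq windows were found for 24 of the 33 members, with 29 windows in all because some genes have several starts. The ISRE letters GAAANNGAAA occurred on either strand in 16 of these 29 windows (55.2%), against 1131 of 32851 windows of all mouse genes (3.44%). The GAS letters TTCNNNGAA occurred in 7 of the 29 (24.1%), against 2726 of all windows (8.3%). Both motifs could be counted in the same window. Irf9 and Ifit2 had no ISRE match in this window. A match describes the letters and is not evidence that a factor was bound in these livers.

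Signals of 6 hepatocyte markers averaged between 13.33 and 13.75 in every array, near the top of the scale, as liver tissue should give. In 3 arrays at 1 day, genes of recruited leukocytes went against the label. S100a8, an alarmin of neutrophils and monocytes, read 9.63 in mouse 1 of low-dose APAP, where the other 4 mice of that group read 3.80 to 4.37, and 9.67 in mouse 1 of high-dose PQ, where the others read 4.11 to 4.85. Mouse 1 of high-dose APAP read 4.08, inside the vehicle range of 3.66 to 4.46, while the other 4 mice of that dose read 7.83 to 10.22. At medium-dose APAP S100a8 ran from 3.59 to 8.56, so mice also differed within a dose. Whether labels were exchanged or the mice differed was not tested. Counts of members in comparisons that hold 1 of the 3 arrays are given with and without them. The 3 arrays were picked by their values, so counts without them do not test a difference between groups.

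High-dose APAP at 1 day was the comparison with vehicle in which members passed the test. Irf9, Stat2 and Eif2ak2 rose and Bst2 and Ifih1 fell, each by 1.26- to 1.31-fold, so 5 of 33 members (15.15%) were called with an adjusted p under 0.05 from limma over all 17306 probe sets. In the same comparison 30.1% of all probe sets were called, 14.8% higher and 15.3% lower. The share among the members was thus below that of all genes. At an unadjusted p under 0.05 the counts were 8 of 33 members (24.24%) and 41.25% of all probe sets. The median change of the members was 0.02 and that of all probe sets -0.05. Leaving out 1 mouse moved the former from -0.07 (12 of 33 positive, without treated mouse 2) to 0.12 (20 positive, without treated mouse 3).

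Irf9, the DNA-binding part of the complex that type I interferon activates, read 7.47, 7.45, 7.15, 7.39 and 7.55 in the vehicle mice and 7.44, 8.09, 7.83, 7.59 and 8.03 in the mice given high-dose APAP. Of the treated mice, 4 lay above every vehicle mouse, and mouse 1, which stood apart in S100a8, lay among them. The change was 0.39 ± 0.12 (SE, n = 5 against 5), or 1.31-fold, with a limma adjusted p of 0.0095. The adjusted p was 0.057 without treated mouse 2 and 0.052 without treated mouse 5, so the call rests on these mice. Its partner Stat2 read 5.48, 5.46, 5.39, 5.74 and 5.63 in vehicle mice and 5.43, 6.26, 5.83, 5.77 and 6.09 after APAP. Here too mouse 1 lay inside the vehicle range and the other 4 above it. The change of Stat2 was 0.34 ± 0.13 (limma adjusted p = 0.037), and without mouse 2 of the treated group it was 0.24 and no longer called (limma adjusted p = 0.18). The call was lost in the same way without treated mouse 3 or 5, or without vehicle mouse 1, 2 or 3. Irf1 and Irf7, transcription factors that act on interferon genes and their targets, had changes of 0.15 and -0.08 and were not called.

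Eif2ak2 encodes the kinase PKR, which stops translation when it binds double-stranded RNA. It read 5.88, 5.96, 5.78, 5.73 and 5.85 in vehicle mice and 6.11, 6.60, 6.07, 6.07 and 6.26 after high-dose APAP. All 5 treated mice lay above every vehicle mouse, which happened for 2.99% of all probe sets. The change was 0.39 ± 0.11 (SE), with a limma adjusted p of 0.005. Ifih1, the sensor MDA5 for long double-stranded RNA, moved the other way, from 8.39, 8.38, 8.02, 8.44 and 8.30 to 7.94, 7.97, 7.72, 8.26 and 7.86. Vehicle mouse 3 and treated mouse 4 made the groups overlap. The fall of Ifih1 was -0.35 ± 0.10 (limma adjusted p = 0.0057). Among the remaining sensors, Ddx58 (RIG-I) and Dhx58 (LGP2), the changes were -0.0023 and -0.14 and neither was called.

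Bst2 encodes tetherin, a membrane protein that holds budding virus particles on the cell. It read 10.74, 10.82, 10.59, 10.84 and 10.85 in vehicle mice and 10.57, 10.44, 10.15, 10.80 and 10.11 after high-dose APAP. Treated mouse 4 lay within the vehicle range, and the other 4 lay below every vehicle mouse. The change was -0.35 ± 0.09 (SE, limma adjusted p = 0.0045).

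**Figure D1:**
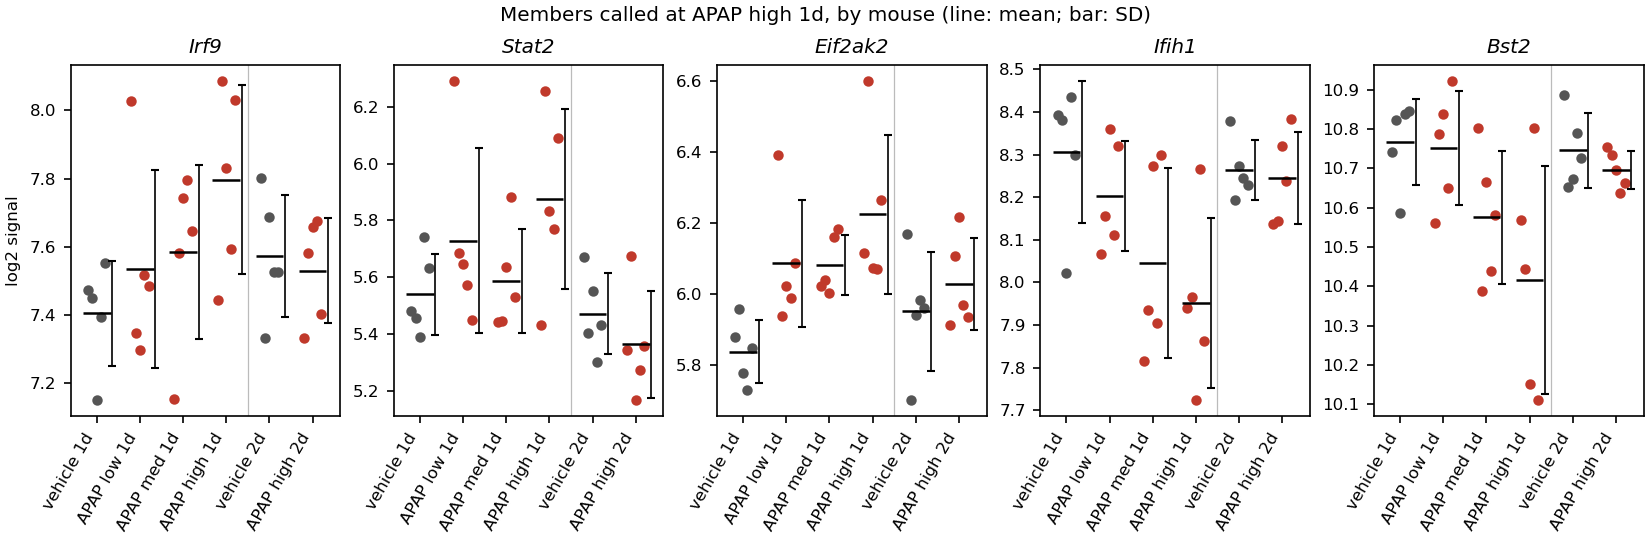
Log2 signal (vertical axis) of the 5 called members in each mouse of the vehicle and APAP groups (horizontal axis), with the group mean as a line and the SD as a bar. The 5 mice of high-dose APAP at 1 day lie above all 1-day vehicle mice in Eif2ak2, while in Irf9, Stat2, Ifih1 and Bst2 at least 1 of them lies within the range of those vehicle mice.

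The other effectors were not called in this comparison. Usp18, the protease that removes ISG15 from proteins and restrains interferon receptor signalling, read 7.90, 8.13, 8.05, 8.28 and 8.29 in vehicle mice and 7.56, 8.28, 6.84, 7.92 and 7.74 after high-dose APAP. The treated mice spread over more than 1 unit and overlapped the vehicle mice, and the change of -0.46 ± 0.20 was not called (limma adjusted p = 0.069). Cxcl10, a chemokine that attracts T and NK cells, read 4.65, 4.97, 4.71, 4.92 and 5.48 in vehicle mice and 5.02, 6.84, 5.25, 5.51 and 5.69 after APAP. Its change of 0.72 ± 0.30 was the largest of any member here, with mouse 2 farthest from the vehicle mice (limma adjusted p = 0.059). Rsad2, the antiviral enzyme viperin, had a change of 0.56 with treated mice from 5.28 to 7.74 (limma adjusted p = 0.15).

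Without the 3 arrays that stood apart, 13 of the 33 members (39.4%) were called at high-dose APAP, 9 higher and 4 lower, against 40.6% of all probe sets. All 5 members called with every array were among the 13. The added rises were in Rsad2 (0.84, limma adjusted p = 0.006), Cxcl10 (0.88, 0.0083), Trim30a (0.51, 0.011), Oasl1 (0.56, 0.012), Xaf1 (0.30, 0.033) and Irgm1 (0.34, 0.048). The added falls were in Gbp7 (-0.46, 0.014) and Iigp1 (-0.20, 0.043), both GTPases induced by interferon gamma. Leaving out only mouse 1 of high-dose APAP gave 11 calls, and leaving out only mouse 5 gave 3. When the fit used only the 10 arrays of the comparison, so that the spread was not borrowed from the other groups, 0 members and 18 probe sets in all were called, with 9 members at an unadjusted p under 0.05.

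**Figure D2:**
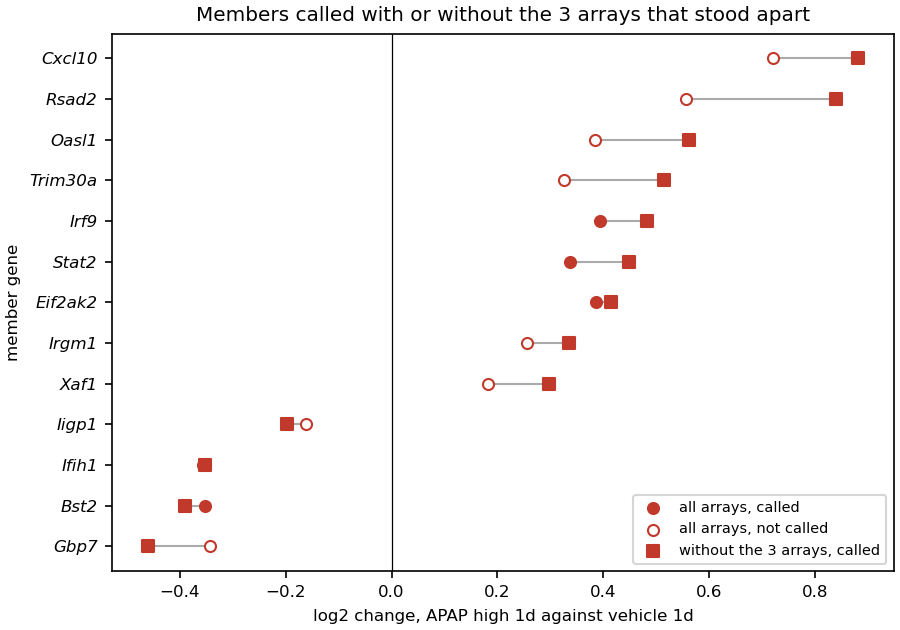
Log2 change from vehicle at high-dose APAP and 1 day (horizontal axis) for the 13 members called without the 3 arrays that stood apart (squares) and for the same members with all arrays (circles, filled where called). Every change kept its sign, and 9 of the 13 lie above 0.

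Genes of other cell types moved in the same arrays. At high-dose APAP and 1 day, 6 of 9 monocyte and macrophage markers and 4 of 7 neutrophil markers rose, and 0 of 11 T and NK cell markers were called. Of all probe sets 14.8% were higher and 15.3% lower. When the 3 arrays that stood apart were left out, 7 and 4 rose and 1 T and NK cell marker, Cd4, fell. In that fit 40.6% of all probe sets were called in either direction. Leaving them out was a choice made for these lists after the data were seen. S100a8 and Ccr2, in which the 3 arrays stood apart, are themselves a neutrophil and a monocyte marker here. The counts without these arrays therefore could not test a rise of these 2 lists. The mean signal of the monocyte and macrophage list was 6.20 to 7.75 over the treated mice and 6.36 to 6.63 over the vehicle mice, that of the neutrophil list 3.84 to 5.84 against 3.74 to 4.02, and that of the T and NK list 3.30 to 3.69 against 3.50 to 3.56. The neutrophil and T and NK lists thus averaged below the lowest array median in the vehicle mice, and RMA gives no value of 0. The part of these cells in the changes of the members was not tested, and in whole liver fewer cells of a type and less RNA per cell cannot be told apart.

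Receptor and sensor genes upstream of the members mostly rose where they were called. Of 9 measured receptor chains and kinases, 5 rose at high-dose APAP and 1 day, among them Ifnar1 (0.42, limma adjusted p = 0.0019), a chain of the type I receptor, and Ifngr2 (0.42, 0.0061), a chain of the interferon gamma receptor. Il10rb (0.56, 0.0088), shared by the interferon lambda and interleukin 10 receptors, and the kinase Jak1 (0.26, 0.0079) rose too. Of 16 nucleic acid sensors, adaptors and related factors, 6 rose and 1 fell. Tmem173, which encodes STING, the adaptor for cytosolic DNA, rose by 1.12 (limma adjusted p = 0.0014), the Toll-like receptor adaptor Myd88 by 0.75 (5.6e-04) and the kinase Ikbke by 0.74 (0.0058). Mavs, the mitochondrial adaptor downstream of MDA5 and RIG-I, fell by 0.48 on the log2 scale (limma adjusted p = 0.0019). With all arrays 14.8% of all probe sets were higher and 15.3% lower. With the 3 arrays that stood apart left out, 6 of the 9 receptors and kinases rose, and 6 of the 16 sensors and adaptors rose and 3 fell. In that fit 40.6% of all probe sets were called in either direction.

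Among 7 negative regulators, 3 rose at high-dose APAP and 1 day: Socs3 by 1.53 (limma adjusted p = 0.036), Ptpn6 by 0.47 (0.006) and Ptpn2 by 0.36 (0.0048). Socs3 is also a target of interleukin 6 signalling. Of 30 further interferon-induced genes that are not members, 6 rose and 0 fell, the 4 with the smallest adjusted p being Isg20 (1.00, limma adjusted p = 0.011), Slfn2 (0.69, 0.019), Samhd1 (0.33, 0.028) and Nmi (0.26, 0.03). Of 16 genes of antigen processing and presentation, Tap2 rose (0.37, 0.0078) and B2m (-0.16, 0.012), H2-K1 (-0.22, 0.019) and Psmb9 (-0.38, 0.035) fell. These counts, with all arrays, stand beside 14.8% of all probe sets higher and 15.3% lower. With the 3 arrays that stood apart left out, 40.6% of all probe sets were called in either direction. In that fit 3 negative regulators rose, and 8 of the 30 further genes rose and 2 fell. In the last list 1 rose and 2 fell, with Psmb9 no longer called (limma adjusted p = 0.059).

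The interferon genes that were measured gave dim signals. Group means of Ifnb1 lay between 2.59 and 2.83 and those of Ifng between 2.61 and 2.79 over all 14 groups, below the lowest array median, as did those of Ifna4, Ifna5, Ifna9 and Ifnab. The remaining interferon genes of the list, such as Ifna1, Ifna2 and Ifnl2, were not analysed here. Of the 8 measured ligand genes, Il18, a cytokine that induces interferon gamma, was called, and it fell by 0.68 on the log2 scale at high-dose APAP and 1 day (limma adjusted p = 0.0018, and 1.4e-06 without the 3 arrays).

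At the lower APAP doses 0 of 33 members were called. For the medium dose 0.243% of all probe sets were called and for the low dose 0.0%, with 6 (18.18%, against 18.42% of all probe sets) and 3 (9.09%, against 6.385%) members at an unadjusted p under 0.05. The low dose also called 0 members without the 3 arrays that stood apart. Over vehicle and the 3 doses at 1 day, 5 members had a linear dose trend (limma adjusted p under 0.05), against 29.3% of all probe sets. Eif2ak2 and Irf9 rose with dose, by 0.37 ± 0.10 (limma adjusted p = 0.0057) and 0.36 ± 0.11 (0.014) from vehicle to the high dose. Ifih1 (-0.36, 0.0048), Bst2 (-0.33, 0.0056) and Usp18 (-0.49, 0.043) fell with dose. In Bst2 the group means went from 10.77 in vehicle mice to 10.75, 10.58 and 10.42 at the low, medium and high dose, with SDs from 0.11 to 0.29. Without the 3 arrays that stood apart 13 members had a trend, against 40.3% of all probe sets, 4 of them among the 5 above. Among the added rises were Rsad2, Cxcl10 and Trim30a, in which the low-dose mouse left out was the highest of its group. The high-dose mouse left out had S100a8 inside the vehicle range. The count of 13 therefore does not test a trend. Leaving out only mouse 1 of high-dose APAP gave 11, and leaving out mouse 5 of high-dose APAP or mouse 3 of vehicle gave 3. A fit of only the arrays in the trend called 0 members, with 7 at an unadjusted p under 0.05 in limma.

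At 2 days after high-dose APAP 0 of 33 members were called, against 4.48% of all probe sets, with 2 members at an unadjusted p under 0.05. Trim30a, a protein of the TRIM family that dampens inflammatory signalling in mice, read 6.41, 5.84, 6.00, 5.89 and 5.90 in vehicle mice and 7.10, 6.45, 6.49, 6.00 and 6.69 in treated mice. Treated mice 1, 2, 3 and 5 lay above every vehicle mouse, and mouse 4 did not. The change was 0.54 (limma adjusted p = 0.084, and 0.025 without the 3 arrays that stood apart, where 7.46% of all probe sets were called). The change at 2 days minus the change at 1 day passed the test in 0 members (2.81% of all probe sets), so no difference between the days was shown by limma, and 6 members had an unadjusted p under 0.05. Without the 3 arrays 2 members were called, Irf9 (-0.53, limma adjusted p = 0.0081) and Stat2 (-0.56, 0.0089), both lower at 2 days, against 19.7% of all probe sets. Leaving out only mouse 1 of high-dose APAP at 1 day also gave 2 calls, as did leaving out only mouse 4. At 2 days the receptor chains Ifngr1 (0.43, limma adjusted p = 0.044) and Il10rb (0.60, 0.025) rose, as did Irf8 (0.70, 0.029), a transcription factor of myeloid cells, and the Toll-like receptors Tlr4 (0.51, 0.029) and Tlr7 (0.45, 0.042). Of the monocyte and macrophage markers 6 of 9 rose in these arrays, with a mean signal of 6.78 to 7.83 against 6.14 to 6.54 in vehicle mice, and their part was not tested. Of 30 further interferon-induced genes 0 were called, and 3 without the 3 arrays, all of which are from 1 day.

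INZ did not give a called member at any dose or day by limma, and neither did PQ. Of all probe sets 0.0231% were called at high-dose INZ and 1 day, and 0.0% in each of the remaining 3 INZ and 4 PQ comparisons with vehicle, so these were comparisons in which hardly any gene passed. At an unadjusted p under 0.05 the members numbered 4 at low-dose INZ (12.12%, against 5.37% of all probe sets), 1 at the medium dose (3.03% against 2.76%), 4 at the high dose (12.12% against 4.80%) and 1 at 2 days (3.03% against 4.715%). For PQ they numbered 4 at the low dose (12.12% against 3.12%), 1 at the medium dose (3.03% against 1.86%), 1 at the high dose (3.03% against 6.25%) and 2 at 2 days (6.06% against 3.63%). High-dose PQ at 1 day also called 0 members without the 3 arrays that stood apart. The dose trends of INZ and PQ called 0 members as well (0.00578% and 0.0% of all probe sets), with 3 and 1 at an unadjusted p under 0.05, and the PQ trend called 0 without the 3 arrays too.

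The intervals bound how much could have been missed. Between 31 and 33 of the 33 members had a 95% interval of the change within 2-fold in either direction in each of the 12 comparisons with vehicle. In high-dose INZ at 1 day this held for 32, and in both high-dose PQ comparisons for 32. The exception at high-dose PQ and 1 day was Cxcl10, at 0.56 with an interval up to 1.16, and at 2 days it was Rsad2, at -0.56 with an interval down to -1.16. The intervals use the spread shared by all groups, so they are too narrow for groups whose mice varied more.

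Ifit2, which binds RNA and acts in cell death, came closest to a change within its family under INZ. It read 6.06, 5.93, 5.58, 5.82 and 6.02 in vehicle mice and 6.07, 6.36, 6.28, 6.40 and 6.28 after high-dose INZ. The groups did not overlap, though the margin was narrow, and the change of 0.39 failed the adjustment (limma adjusted p = 1.0). Oasl1, an oligoadenylate synthetase-like protein that restrains translation of Irf7 in mice, read 6.39, 6.38, 6.22, 6.13 and 6.08 in vehicle mice and 6.24, 6.48, 6.84, 6.76 and 7.13 after low-dose INZ, a change of 0.45 (limma adjusted p = 0.89). Irgm1, a GTPase that mice need to resist microbes inside cells, read 8.04, 8.23, 7.92, 8.20 and 8.19 in vehicle mice and 8.31, 8.32, 8.57, 8.45 and 8.76 after low-dose INZ. All treated mice lay above all vehicle mice, with a change of 0.37 (limma adjusted p = 0.76).

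Irgm1 lay above every vehicle mouse in all treated mice also at low-dose APAP, high-dose INZ at 1 day and low-dose PQ, where 1.13%, 0.78% and 0.329% of all probe sets did so, and at low-dose INZ, where 0.942% did. These 4 comparisons share the same 5 vehicle mice, in which Irgm1 ranged from 7.92 to 8.23, so they are not independent. In the vehicle mice of 2 days Irgm1 averaged 0.21 more than in those of 1 day, a difference that was not called (limma adjusted p = 1.0). Ddx58 was above all vehicle mice at low- and high-dose INZ and at medium-dose PQ, and Eif2ak2 at medium-dose APAP and at low-dose INZ. Members below all vehicle mice were Usp18 at medium-dose APAP (2.03% of all probe sets) and Ifi27 at medium-dose PQ (0.861%). The share of all probe sets above all vehicle mice was 1.99% at medium-dose APAP and 0.821% at medium-dose PQ.

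**Figure D3:**
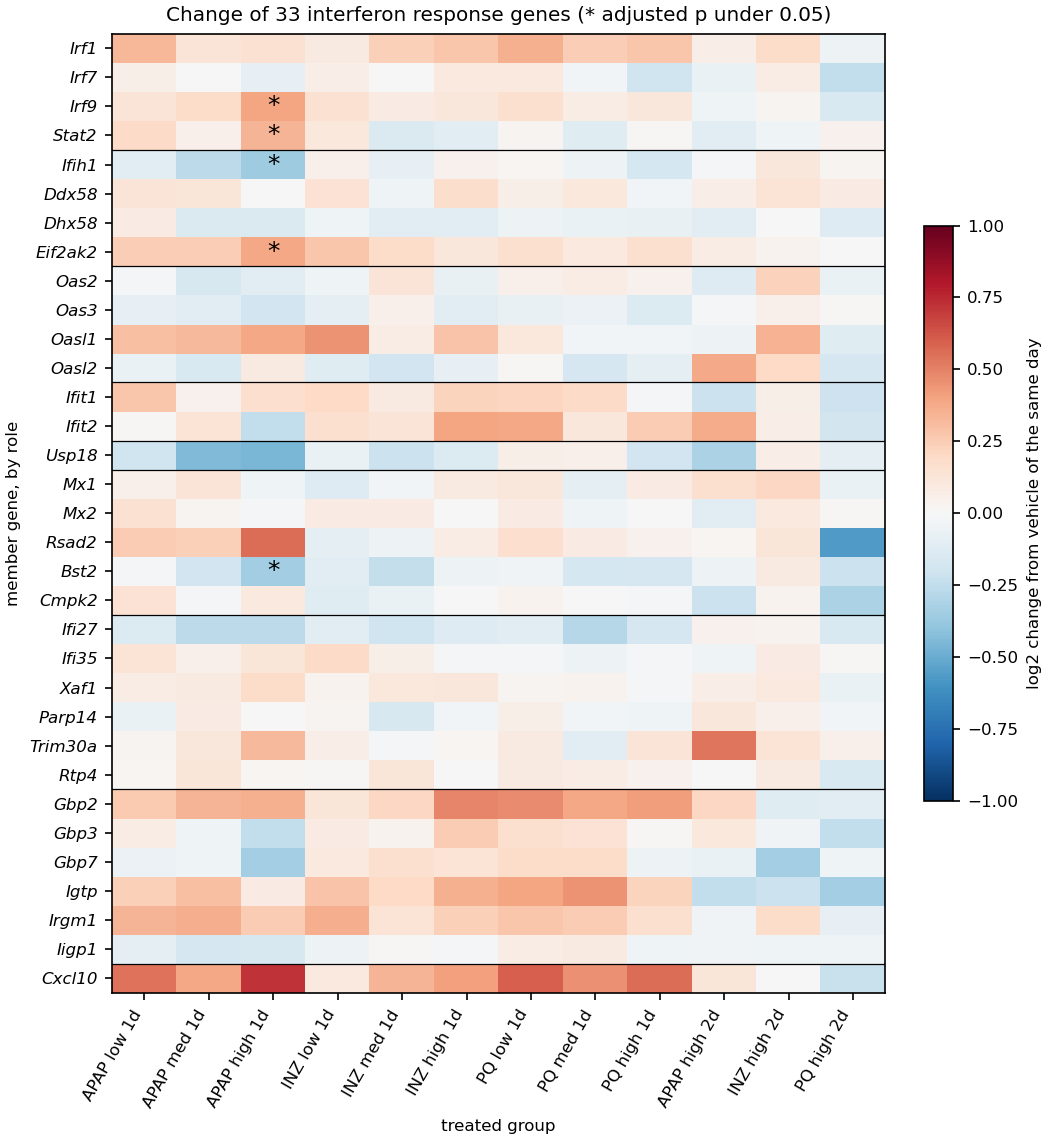
Log2 change from the vehicle mice of the same day (colour, -1 to 1) for each of the 33 members (rows, grouped by role) in the 12 treated groups (columns). Stars mark the 5 changes with an adjusted p under 0.05, all of them at high-dose APAP and 1 day.

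Across members, the signs of the changes leaned one way in some groups without any single call. At low-dose PQ and 1 day 28 of 33 changes were positive, with a median of 0.09, against 44.18% of all probe sets. Leaving out 1 mouse at a time gave medians from 0.04 (23 positive, without treated mouse 5) to 0.13 (28 positive, without treated mouse 2). At high-dose PQ and 2 days 26 of 33 changes were negative, with a median of -0.10, while 51.02% of all probe sets were positive there. At high-dose INZ and 2 days 27 of 33 were positive, with a median of 0.07, against 55.85% of all probe sets. Both use the same vehicle mice, and both counts moved when 1 of these was left out. Without vehicle mouse 1 of 2 days the median at high-dose PQ was -0.02 with 13 of 33 changes positive, and at high-dose INZ it was 0.15 with 29 positive. At high-dose APAP and 2 days the count of positive changes went from 14 to 23 of 33 without that mouse. Leaving out vehicle mouse 2 of 2 days moved both the other way. The median was then 0.02 with 22 positive at high-dose INZ, and -0.14 with 5 positive at high-dose PQ. Set directly against each other, with no vehicle mouse in the comparison, high-dose INZ lay above high-dose PQ at 2 days in 29 of 33 members. The median was 0.18, and 54.95% of all probe sets were positive. Of these mice, INZ mouse 3 was the highest of its group in 15 members (18.47% of all probe sets) and PQ mouse 5 in 16 (21.09%). How far the count of 29 rests on single mice was not tested.

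The high doses of the 3 compounds were also compared with each other, in 3 pairs per day, with p values adjusted over all probe sets within a pair. APAP and INZ at 1 day differed in 6 members, against 24.7% of all probe sets. Stat2 (0.45 ± 0.13, limma adjusted p = 0.0069) and Eif2ak2 (0.27 ± 0.11, 0.049) were higher after APAP. Ifit2 (-0.64 ± 0.18, 0.0078), Gbp7 (-0.48 ± 0.16, 0.021), Ifih1 (-0.40 ± 0.10, 0.0026) and Bst2 (-0.30 ± 0.09, 0.015) were lower after APAP than after INZ. In Ifit2 the APAP mice read 5.60, 6.16, 4.85, 6.10 and 5.46, so that 3 of 5 lay below every INZ mouse and mice 2 and 4 lay within their range. The count was 11 without the 3 arrays that stood apart (36.3% of all probe sets), 10 without mouse 1 of APAP alone, 2 without mouse 3 and 3 without mouse 5. A fit of only these 10 arrays called 0 members and 0 probe sets by limma, with 8 members at an unadjusted p under 0.05.

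APAP and PQ at 1 day differed in 0 members with all arrays (0.387% of all probe sets), with 4 at an unadjusted p under 0.05 in limma. Without the 3 arrays that stood apart they differed in 9 (35.6% of all probe sets). These were led by Oasl1 (0.81, limma adjusted p = 6.6e-04), Eif2ak2 (0.40, 9.6e-04) and Rsad2 (1.04, 0.0014), all higher after APAP. With all arrays, the PQ mouse left out was the highest of its group in each of these genes. The high-dose APAP mouse left out had S100a8 inside the vehicle range. The count of 9 therefore does not test a difference between the compounds. Leaving out mouse 1 of high-dose PQ alone gave 6 calls, mouse 1 of APAP 4 and mouse 4 of APAP 2. INZ and PQ at 1 day differed in 0 members (0.0289% of all probe sets, 2 members at an unadjusted p under 0.05), and in 0 without the 3 arrays, and all 33 intervals of the difference lay within 2-fold with all arrays. At 2 days 0 members differed in any pair, against 3.83% of all probe sets for APAP and INZ, 3.53% for APAP and PQ and 0.0% for INZ and PQ, with 2 (6.06%), 3 (9.09%) and 7 (21.21%) members at an unadjusted p under 0.05 in limma. The shares of all probe sets at that p were 20.17%, 18.18% and 6.339%. In fits of only the arrays of each pair, 6, 7 and 17 members had an unadjusted p under 0.05 in limma, and 0 were called. The shares of all probe sets at that p in these fits were not counted. The compounds were given at different doses in mg/kg, so these pairs compare the high dose of each and not equal doses. The vehicle groups of the 2 days differed in 0 members (0.0% of all probe sets, 1 at an unadjusted p under 0.05).

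Differences between mice of the same group were larger for these genes than for most probe sets of any signal level. The median SD within groups was 0.218 over the members and 0.159 over all probe sets, and 27 of 33 members exceeded the latter. It ran from 0.128 in Iigp1 and Ddx58 to 0.485 in Cxcl10 and 0.487 in Rsad2. The means of the 14 groups spanned 0.386 in the median member and 0.304 in the median probe set, and in 0 members did they span more than 1. When dim genes were left out, 30 of 33 members remained, against 9182 of 17306 probe sets. The members were thus less often dim, and spreads at like signal were not compared.

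In several groups 1 mouse was the highest in most members at once, as the plot of how often each mouse was the highest shows. These mice were picked after their values were seen, so the counts describe them and are not tested. Vehicle mouse 1 of 2 days was the highest of its 5 in 31 of 33 members (93.94%), where it was the highest in 17.89% of all probe sets. Low-dose INZ mouse 5 was the highest in 27 members (22.0% of all probe sets), high-dose PQ mouse 4 at 1 day in 26 (14.99%) and low-dose APAP mouse 1 in 23 (29.41%). High-dose APAP mouse 2 at 1 day, without which Irf9 and Stat2 were not called, was the highest in 18 (15.66%). Medium-dose PQ mouse 3, in a group of 4, was the highest in 18 as well (23.58%). The median mouse of the 69 was the highest in 4 members.

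**Figure D4:**
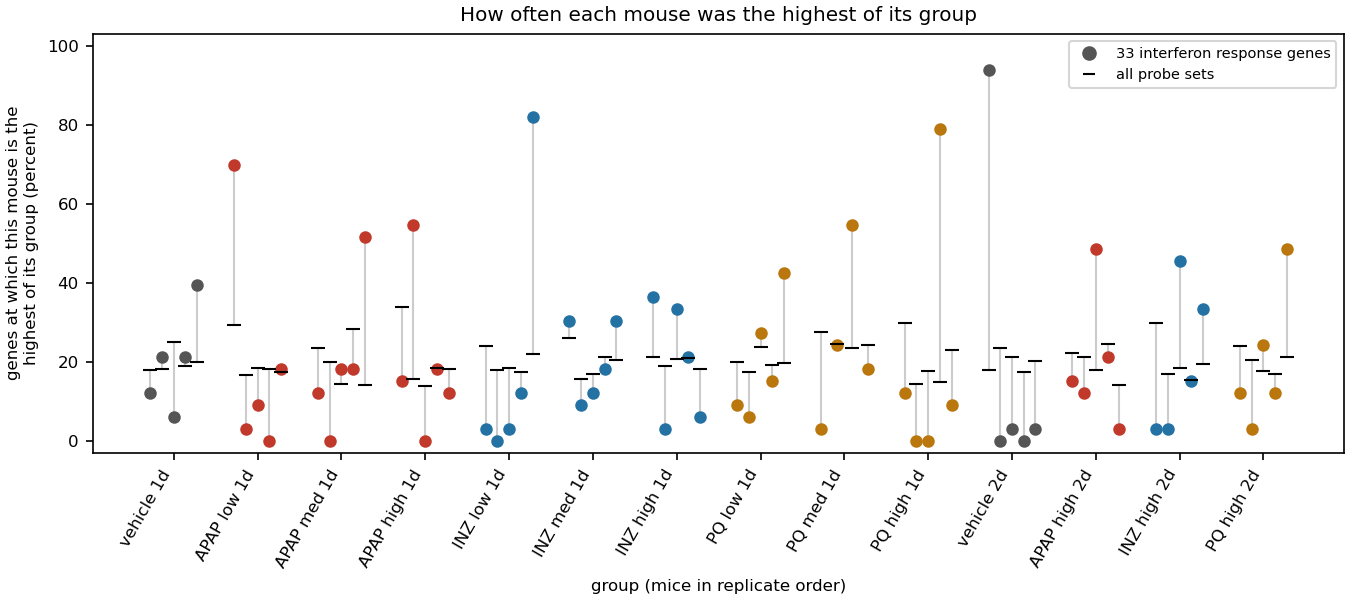
Percent of the 33 members in which each mouse had the highest signal of its group (dots) and the same percent over all probe sets (black ticks), with the 69 mice in replicate order within their 14 groups (horizontal axis). The 4 dots farthest up are vehicle mouse 1 of 2 days, low-dose INZ mouse 5, high-dose PQ mouse 4 and low-dose APAP mouse 1, while the ticks of all mice lie between 13.78 and 33.90.

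The excess of high-dose PQ mouse 4 was largest in a GTPase. Igtp, a GTPase of the interferon gamma response, read 9.04, 8.54, 8.63, 10.30 and 8.72 in the 5 mice of that group, so mouse 4 exceeded the mean of the other 4 by 1.56. It exceeded them by 1.33 in Gbp2, 1.22 in Gbp3, 1.03 in Gbp7 and 0.90 in Irgm1, and was the highest in 6 of 6 measured GTPases. Ifit1, an antiviral RNA-binding protein, read 7.34, 6.52, 6.51, 7.85 and 6.62. Among genes that are not members, Cxcl9, a chemokine induced by interferon gamma, was higher by 1.67 in this mouse, H2-Ab1, a chain of MHC class II, by 1.24 and Ifi47 by 1.15. Kupffer cell markers were the highest in this mouse in 5 of 6 genes and antigen presentation genes in 14 of 16. The part of Kupffer cells in these values was not tested. Without this mouse the median change of the members at high-dose PQ went from -0.01 to -0.09, with 5 in place of 15 of 33 changes positive.

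High-dose PQ mouse 1, which stood apart in S100a8, had another pattern. Cxcl10 read 6.56, 4.59, 4.81, 6.59 and 4.96 in that group, so mice 1 and 4 were alike in this gene. Rsad2 read 6.87, 5.13, 5.42, 6.35 and 5.68, highest in mouse 1, and Oasl1 7.09, 5.78, 5.68, 6.71 and 5.79. The GTPases were mixed in mouse 1: against the mean of the other mice, mouse 4 included, Gbp7 lay at -0.72 and Irgm1 at 0.36, and Igtp lay above mice 2, 3 and 5. Low-dose APAP mouse 1 exceeded the other mice of its group by 1.71 in Rsad2, 1.42 in Cxcl10, 1.02 in Trim30a and 1.01 in Ifit1. Of 9 monocyte and macrophage markers it was the highest in 9, and of 7 neutrophil markers in 4, with the part of these cells again not tested.

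Vehicle mouse 1 of 2 days received no compound. It exceeded the mean of the other 4 vehicle mice by 0.80 in Oasl2, 0.795 in Igtp, 0.74 in Gbp3, 0.64 in Usp18 and 0.64 in Rtp4. In Igtp and Gbp3 this was less than the excess of high-dose PQ mouse 4. Irf1 and Mx1 were the members in which it was not the highest. All 6 Kupffer cell markers, 12 of 16 antigen presentation genes and 21 of 30 further interferon-induced genes were the highest in this mouse. Low-dose INZ mouse 5 exceeded its group by 1.02 in Usp18 and 0.89 in Ifi27, and was the highest in 4 of 6 GTPases, from 0.60 above the mean of the others in Gbp3 to 0.23 in Iigp1. Gbp2 and Gbp7 were the exceptions, at -0.015 and 0.051.

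**Figure D5:**
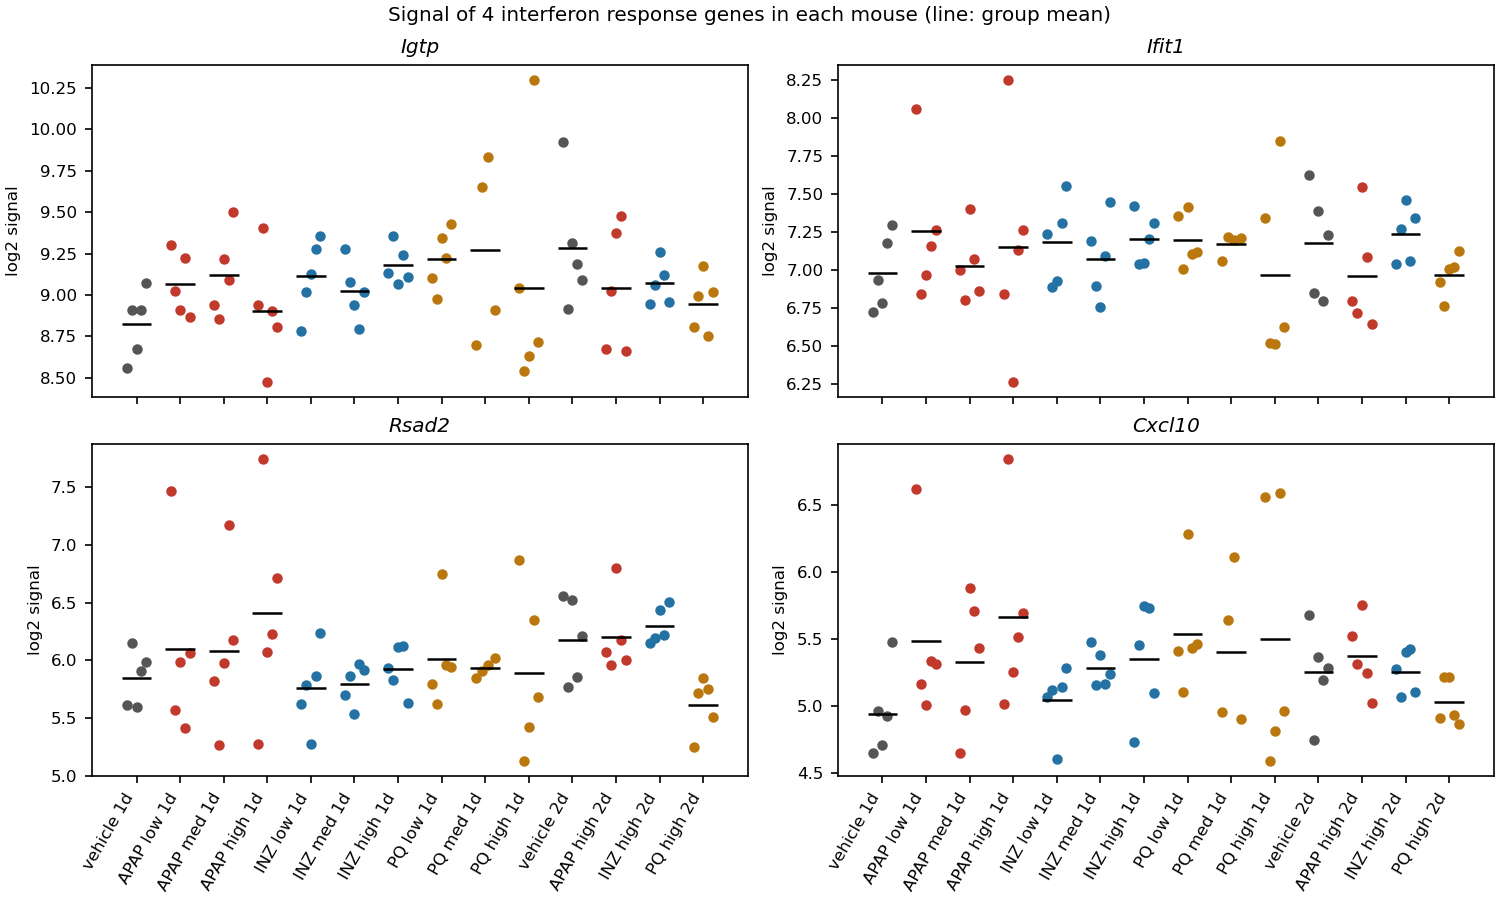
Log2 signal (vertical axis) of Igtp, Ifit1, Rsad2 and Cxcl10 in each of the 69 mice, by group (horizontal axis), with the group mean as a line. Single mice, such as high-dose PQ mouse 4 in Igtp (10.30) and high-dose APAP mouse 2 in Rsad2 (7.74), lie farther from their group than the group means lie from each other.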

How the data were processed

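Livers of 69 mice were measured on Affymetrix arrays after labelling with a 3' kit, per the labels' protocols. The deposited table holds 1 value per probe set and array on a log2 scale, and the submitters' processing notes name RMA, which corrects background, normalizes quantiles over arrays and summarises probes. The values run from 1.87 to 14.34 and were used as deposited, and the genome build of the probe sets is not given in the sources used here. The number of arrays limits the precision. The design text counts 70 arrays, of which 69 were analysed here.

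Arrays were grouped by compound, dose and day from the labels. One mean per group was fitted to each of 17306 probe sets with limma 3.58.1 in R 4.3.3 (55 residual and 3.5 prior degrees of freedom), with two-sided moderated tests, Benjamini-Hochberg adjustment over all probe sets within a comparison and a call at an adjusted p under 0.05. The fit assumes the same spread in all groups. The labels do not say that mice were handled separately after dosing. The p values set each change against the spread between mice within groups, whatever its source. This spread was pooled over all 14 groups and not taken only from the groups compared. In all, 25 comparisons were fitted, and the fit was tested on simulated data. Errors after a change are standard errors (SE), and SD is the standard deviation over mice.

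The members, the lists of pathway and cell type genes and the rule for naming genes were chosen with earlier results of these data known, and so were the 3 arrays left out in one alternative. The rule named every member called against vehicle, the member with the largest moderated statistic of each role group without a call, members in which single mice stood out, and at most 4 called genes per pathway list and comparison. Markers used only to describe arrays, such as S100a8 and Cxcl9, lie outside that rule and were picked after their values were seen. Probe sets were named by the platform's annotation, in which 16464 had 1 symbol and 842 none.

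Alternatives were a fit of only the arrays compared, array weights, centring each array on its median, an intensity trend with a robust prior, leaving out dim genes, leaving out the 3 arrays, using only arrays whose title number is at most 190, and leaving out each mouse in turn. Leaving out the 3 arrays for the pathway and cell type lists was added after the data were seen. Plots were drawn with matplotlib 3.10.9 in Python 3.11.15.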

Additional observations from a re-analysis of the deposited data

Results flagged for a closer look

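In checks of 11 members in each of the 14 groups, 12 values lay far from those of the other mice of the group, and chance alone gives about 1 in 20. Low-dose APAP mouse 1 was high in Cxcl10 (6.62, with the nearest other mouse at 5.33), Oasl1 (7.15, nearest 6.50) and Stat2 (6.29, nearest 5.69). High-dose PQ mouse 4 at 1 day was high in Ifit2 (7.17, nearest 6.01), and vehicle mouse 1 of 2 days in Trim30a (6.41, nearest 6.00). Low-dose INZ mouse 5 was high in Usp18 (8.88, nearest 8.07) and Bst2 (11.02, nearest 10.63). High-dose INZ mouse 3 at 2 days was high in Bst2 (11.08, nearest 10.81), and high-dose APAP mouse 3 at 2 days in Usp18 (8.69, nearest 7.71). The low values were Ifit2 in low-dose PQ mouse 2 (5.72, nearest 6.30), Irf9 in low-dose PQ mouse 4 (7.26, nearest 7.59) and Usp18 in high-dose PQ mouse 1 at 2 days (7.72, nearest 8.09).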

How the results depend on the processing

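No paired analysis was possible because each array came from a different mouse and the labels link no mice across groups. For high-dose APAP against vehicle at 1 day, where 5 members were called, the count was 0 in the fit of only the arrays compared, 16 with array weights, 8 with centred arrays (2 higher and 6 lower, in place of 3 and 2), 13 without the 3 arrays that stood apart, 11 with arrays numbered up to 190 and 3 to 11 leaving out 1 mouse at a time. For the APAP dose trend (5) the counts in the same order were 0, 15, 9, 13, 13 and 3 to 11. For APAP against INZ at 1 day (6) they were 0 in the fit of only the arrays compared, 16 with weights, 11 without the 3 arrays, 10 with arrays numbered up to 190 and 2 to 10 leaving out 1 mouse. For APAP against PQ at 1 day (0) they were 13 with weights, 9 without the 3 arrays, 8 with arrays numbered up to 190 and 0 to 6 leaving out 1 mouse. The change of APAP between the days (0) gave 8 with weights, 2 without the 3 arrays, 2 with arrays numbered up to 190 and 0 to 2 leaving out 1 mouse. High-dose APAP at 2 days (0) gave 1 with weights, 1 without the 3 arrays and 0 to 1 leaving out 1 mouse, medium-dose APAP (0) gave 1 with arrays numbered up to 190, and APAP against PQ at 2 days (0) gave 0 to 1. The cause of these shifts was not tested. For high-dose APAP against vehicle at 1 day, the limit at 190 removed mouse 1 of APAP alone from the groups compared. Its count is therefore not a check apart from leaving out that mouse. The counts of all probe sets moved with those of the members, to 18 with only the arrays compared and 8809 with weights at high-dose APAP and 1 day. The count was 6 of 30 members left when dim genes were removed. At high-dose APAP and 1 day the sign turned under at least 1 alternative in 10 of 33 members, none of them called, among them Ddx58 (-0.10 to 0.10) and Irf7 (-0.25 to 0.006). The calls of Irf9, Stat2, Eif2ak2, Ifih1 and Bst2 were lost in the fit of only the arrays compared. The call of Stat2 was also lost with centred arrays (limma adjusted p = 0.08), and that of Irf9 without mouse 2 (0.057) or mouse 5 (0.052) of high-dose APAP. In 12 comparisons with vehicle the median change of the members moved by less than the SD of the array medians in every alternative setting tried. This bound is wide and cannot show that a median is stable. At high-dose APAP and 1 day the SD was 0.204 and the median 0.018, which ran from -0.068 to 0.122 leaving out 1 mouse. At high-dose PQ and 1 day the SD was 0.284 and the median -0.01, which ran from -0.091 to 0.077.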

Other observations

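Other genes moved with the single mice described above, and these values belong to no comparison between groups. In high-dose PQ mouse 4 at 1 day, the Kupffer cell genes Timd4 and Clec4f, a phosphatidylserine receptor and a lectin, lay 1.18 and 1.08 above the mean of the other 4 mice, and the MHC class II genes H2-Aa and H2-Eb1 lay 1.07 and 1.02 above it. Socs3 lay 1.33 below it in the same mouse (a difference of -1.33). In vehicle mouse 1 of 2 days, Timd4 lay 0.70 above the mean of the other 4 vehicle mice, Irgm2 0.63 above it and Socs3 1.06 above it. In low-dose INZ mouse 5, the scavenger receptor Marco lay 1.63 above the others and Ube2l6, the conjugating enzyme for ISG15, 0.91 above them.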
